A study of Mus musculus with 28 samples.

Results

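The naive pluripotency factors described here are 10 genes whose RNA is high in mouse embryonic stem cells (mESCs) kept in the ground state: Zfp42, Esrrb, Klf2, Klf4, Klf5, Tfcp2l1, Tbx3, Nr0b1, Prdm14 and Tcl1. They were taken by gene name from the 2 deposited tables of RPKM values (read number divided by exon length and by library size). Each name matched 1 row, so the members are 10 of the 37583 genes in each table, and all 28 libraries were used. The study dealt with PRC2, a Polycomb histone methyltransferase that depends on Eed, and with Elongin A (EloA), which speeds transcript elongation by RNA polymerase II. Total RNA depleted of ribosomal RNA was sequenced from mESCs and from embryoid bodies (EBs), aggregates of differentiating cells collected at day 5 after LIF was withdrawn. The CJ7 line was given as wild type, as Eed null and with either of 2 substitutions of the same lysine of Elongin A, K754M or K754R, with 2 mESC and 2 EB libraries each. The CCE line (CCE28 in the growth protocol) was given as 3 EloA+/+ and 3 EloA-null mESC libraries and as 3 EB groups of 2 libraries. In 1 of those EB groups the titles say EloA null and the data columns say heterozygous (pair A), and in the other the titles say EloA+/- and the columns say null (pair B), so neither was given a genotype. Stem cells of all groups had been grown on feeder fibroblasts with LIF and the inhibitor pair PD0325901 and CHIR99021 (2i), and feeders were then depleted by plating.

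Naive pluripotency is the state of the preimplantation epiblast, and a network of transcription factors holds it in culture. LIF acts through Stat3, PD0325901 blocks Mek and so Erk signalling, and CHIR99021 inhibits Gsk3 and so stabilises beta-catenin. Klf4 and Tfcp2l1 are known targets of LIF and Stat3, Esrrb is a target of the Gsk3 and Tcf3 arm, and Klf2 protein is stabilised when Mek is blocked. On exit from this state most of these genes are silenced, whereas Tbx3, Klf4 and Klf5 also have roles in differentiated tissues.

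Eed was lower in both Eed null groups (means of 22.2 against 112 RPKM in mESCs and 16.0 against 52.5 in EBs), and Tceb3, the gene of Elongin A, was lower in EloA null mESCs (6.84 against 11.2 RPKM), so RNA of both remained. The tables do not show which exons were deleted. Depth, read from the RPKM step of 1 read and given in units of 1e6 reads, was 11.1 to 18.2 in CJ7 mESCs, 24.3 to 46.4 in CCE mESCs, 28.7 to 39.9 in CJ7 EBs and 23.6 to 30.9 in CCE EBs. Among CCE mESCs all 3 EloA null libraries (24.3 to 34.7) were shallower than the wild type ones (42.9 to 46.4). The labels do not say whether replicates were separate cultures, so p-values measure the spread between libraries, which may be technical. Fibroblast markers (11 genes, Col1a1, Postn and the like) summed to between 121 and 1105 RPKM in the mESC libraries and to between 8.52 and 89.8 in the EB libraries, and their part in the results below was not tested. Sample titles name no separate clones of a genotype. For every mutant, Eed null included, a difference between single lines thus cannot be told apart from one between genotypes. In bulk RNA, fewer cells of a type and less RNA per cell cannot be told apart.

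Promoter sequence was at hand for 7 of the 10 members in RefSeq's table for build GRCm38.p6, in 8 windows since Esrrb has a pair of start sites. The 250 bases before the start are printed for 4 members. Zfp42 is shown for its octamer, the letters bound by Oct4 (Pou5f1), Nr0b1 and Tcl1 as the gene with the largest change of log2(RPKM + 0.5) in Eed null EBs and the gene closest to silent in wild type EBs, and Klf2 as a CpG-dense promoter. All run from 5′ to 3′ on the strand of the gene and end at the base before the start. Capitals mark matches, on either strand, to the octamer ATTTGCAT, a Klf motif GGGTGTGG and the GC box GGGCGG. The windows are chr8:43307010-43307259 (minus strand) for Zfp42, chrX:86191525-86191774 (plus) for Nr0b1, chr12:105222738-105222987 (minus) for Tcl1 and chr8:72318812-72319061 (plus) for Klf2.
Zfp42: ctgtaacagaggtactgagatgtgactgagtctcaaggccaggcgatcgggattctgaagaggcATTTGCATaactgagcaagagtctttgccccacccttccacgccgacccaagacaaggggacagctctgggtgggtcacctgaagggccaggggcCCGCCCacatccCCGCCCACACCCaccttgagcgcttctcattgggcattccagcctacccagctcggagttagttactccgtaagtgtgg
Nr0b1: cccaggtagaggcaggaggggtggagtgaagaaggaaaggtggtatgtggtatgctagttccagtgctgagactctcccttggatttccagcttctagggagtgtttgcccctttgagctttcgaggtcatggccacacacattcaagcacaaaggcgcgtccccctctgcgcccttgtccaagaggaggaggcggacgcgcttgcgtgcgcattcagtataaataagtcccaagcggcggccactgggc
Tcl1: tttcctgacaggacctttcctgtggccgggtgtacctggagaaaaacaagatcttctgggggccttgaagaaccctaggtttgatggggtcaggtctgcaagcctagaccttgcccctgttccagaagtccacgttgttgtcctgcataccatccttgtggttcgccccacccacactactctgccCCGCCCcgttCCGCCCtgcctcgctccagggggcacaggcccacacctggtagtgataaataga
Klf2: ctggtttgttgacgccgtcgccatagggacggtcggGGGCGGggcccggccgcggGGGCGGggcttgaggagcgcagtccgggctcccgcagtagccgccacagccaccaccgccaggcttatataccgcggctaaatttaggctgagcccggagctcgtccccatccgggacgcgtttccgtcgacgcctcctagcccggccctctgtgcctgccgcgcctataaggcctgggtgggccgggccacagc

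The Zfp42 window held the octamer with its first base 186 bases before the start, 2 GC boxes at 91 and 79 bases and a Klf match at 75 bases that overlaps the second GC box. It was the single window of the 8 with an octamer (1.60% of all 32851 promoter windows hold one) and the single one with a Klf match (3.20% of all). GC boxes stood in 4 of the 8 windows, those of Zfp42, Klf2, Klf4 and Tcl1, against 32.7% of all windows. The Sox motif CATTGTT (3.29% of all windows), the Esrrb motif AAGGTCA (4.08%) and the Stat3 motif TTCCNGGAA (0.913%) had no match in these 8 windows. CpG counts per 250 bases were 29 in Klf2 and 32 in Klf4, against 16 in Tfcp2l1, 11 in Nr0b1, 9 in Zfp42, 7 in Tcl1 and 6 and 3 in the Esrrb windows. The median over all windows was 6, with quartiles of 2 and 16. Klf2 and Klf4 therefore lie above the upper quartile, and the Zfp42, Tcl1 and Esrrb windows between the quartiles. A match describes letters in these windows and is not a measure of binding.

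All 10 members were expressed in every stem cell library. Zfp42 (Rex1), a zinc finger gene and the usual reporter of the naive state, was the highest in each mESC group, with 282 and 441 RPKM in CJ7 wild type and 754.3, 609.7 and 579.2 in CCE wild type. Its mean in CJ7 wild type exceeded 99.7% of all genes in the table. Next came Tfcp2l1, a grainyhead-like factor downstream of LIF (63.5 and 74.5 RPKM in CJ7 wild type, 97.7, 89.9 and 96.2 in CCE wild type), and the orphan nuclear receptor Esrrb (56.9 and 52.7, and 74.95, 68.4 and 71.6). Klf5 was the lowest in CJ7 wild type (10.7 and 9.75 RPKM), and Tcl1, a coactivator of the kinase Akt, was the lowest in CCE wild type (11.9, 14.3 and 13.8). The order at the top (Zfp42, Tfcp2l1, Esrrb) held in all 6 mESC groups.

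**Figure D1:**
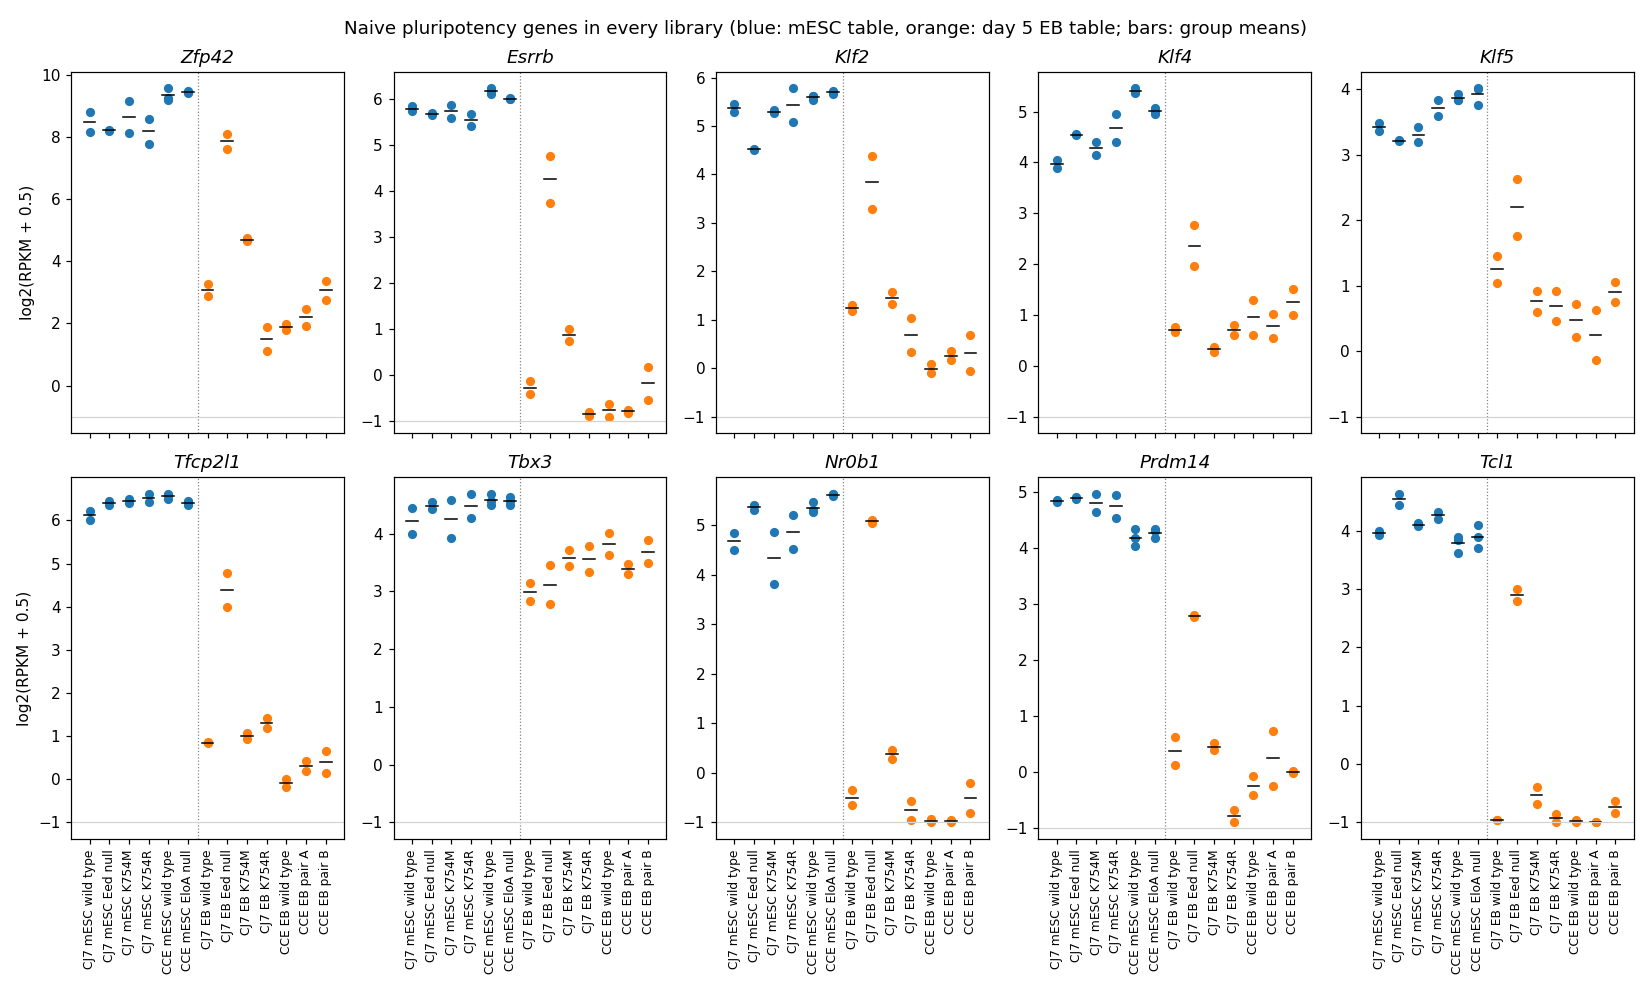
Level of each member, log2(RPKM + 0.5), in all 28 libraries by group. Points are libraries, bars are group means of the points, and the grey line at -1 is a value of 0 RPKM. Esrrb, Klf2, Klf4, Klf5, Tfcp2l1, Prdm14 and Tcl1 are lower in every EB library, Eed null included, than in every mESC library. Zfp42 and Nr0b1 are so except in Eed null EBs, which overlap the mESC libraries. Tbx3 overlaps between the stages.

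Replicates of CJ7 mESCs differed for some members. K754M libraries had 277 and 563 RPKM of Zfp42 and 13.6 and 28.7 of Nr0b1 (Dax1), an orphan nuclear receptor that lacks a usual DNA-binding domain. K754R libraries had 219 and 380 RPKM of Zfp42 and 22.4 and 36.7 of Nr0b1. Eed null replicates lay close together, at 299 and 291 RPKM of Zfp42 and 42.3 and 39.1 of Nr0b1. In CCE mESCs, Zfp42 was 716, 702 and 685 RPKM in EloA null and spread more widely in wild type, from 579.2 to 754.3.

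In Eed null CJ7 mESCs the naive genes remained high, and 1 of the 10 members passed the test against wild type, where 8.59% of all tested genes did in either direction and 5.32% were called higher (limma on log2(RPKM + 0.5), Benjamini-Hochberg over all tested genes, called at an adjusted p below 0.05, two-sided). Tcl1 was 24.4 and 21.4 RPKM in Eed null against 15.5 and 14.7 in wild type, with no overlap (log2 change 0.59 ± 0.13 SE, n = 2 per group, adjusted p = 0.0420). This call was lost without any 1 of the 4 libraries (adjusted p from 0.166 to 0.364) and with libraries shifted to the same median (0.0795). Klf2, a Krüppel-like factor sustained by Mek inhibition, was 22.4 and 22.5 RPKM against 43.1 and 38.5, the largest difference downward, but did not pass (-0.85 ± 0.22, adjusted p = 0.0641). With the spread taken from all 14 mESC libraries, Klf2 did pass (adjusted p = 0.00461), as did Klf4 (0.0196). The median change of the 994 tested genes of chromosome 8, where Klf2 and Zfp42 lie, was -0.24 in this comparison, against 0.05 over all genes, and its part in the Klf2 value was not tested. Klf4 went the other way, with 22.7 and 22.9 RPKM against 14.3 and 16.1 (0.58 ± 0.20, adjusted p = 0.132). The median change of the members was 0.16. Zfp42 had an interval from -1.24 to 0.73 (95%), so a change of up to that size either way was within the error. Markers of several cell types moved in the same libraries. Trophoblast markers were higher in Eed null for 4 of the 9 tested, and the 10 markers summed to 266 to 269 RPKM against 28.3 to 42.5 in wild type. Visceral endoderm markers were higher for 2 of 8 tested (summed 21.5 to 23.2 against 3.02 to 3.68 RPKM). Mesoderm markers were higher for 1 of 7 (17.9 to 19.5 against 5.12 to 7.03) and neural markers for 2 of 5. Germ cell markers were higher for 1 and lower for 1 of 8, and fibroblast markers lower for 1 of 11. The markers' part in the values of the members was not tested.

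The Elongin A substitutions gave 0 calls among the members in mESCs. For K754M against wild type 0 of 10 were called by limma, where 0% of all genes were called. At an unadjusted p below 0.05 there was 1 member (Tfcp2l1, 0.34 ± 0.13), and 2103 of all 21012 tested genes. For K754R 0 of 10 were called, where 0.162% of all genes were called. At an unadjusted p below 0.05 there were 3 members, and 3000 of all 21012 tested genes. Klf4 had the largest K754R difference, 20.6 and 30.4 RPKM against 14.3 and 16.1 (0.71 ± 0.20, adjusted p = 0.194), and passed when all 14 mESC libraries shared 1 fit (0.0181), as did Tfcp2l1 (0.0280). The changes of the members ran from -0.33 to 0.34 for K754M and from -0.29 to 0.71 for K754R. For Zfp42 the 95% intervals were -0.82 to 1.15 and -1.27 to 0.69, so moderate changes were not detectable with these replicates.

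In CCE mESCs without EloA, Klf4 fell. It was 32.9, 30.6 and 31.2 RPKM in EloA null, below the 41.6, 40.7 and 43.4 of wild type (-0.40 ± 0.05, n = 3 per group, adjusted p = 0.0106), and the groups did not overlap. It was the 1 of 10 members called, where 3.35% of all genes were called and 1.23% were called lower. The replicate numbers go with shared deviations in these 6 libraries, and with the number as a block Klf4 had an adjusted p of 0.00736. In that blocked fit 12.4% of all genes were called, and Nr0b1 also passed (adjusted p = 0.0312), with 49.1, 49.3 and 47.9 RPKM against 43.8, 37.8 and 39.2 (0.27 ± 0.06, unblocked adjusted p = 0.0753, or 0.0224 without wild type library 1). Leaving out EloA null library 3, wild type library 2 or wild type library 3 ended the Klf4 call (adjusted p from 0.0529 to 0.0633), as did the fit of all 14 mESC libraries (0.248). Tfcp2l1 (81.4, 86.0 and 87.1 against 97.7, 89.9 and 96.2 RPKM) and Esrrb (63.5, 64.4 and 64.1 against 74.95, 68.4 and 71.6) were lower without overlap but did not pass (adjusted p = 0.187 and 0.145). Zfp42, Klf5, Tbx3, Prdm14 and Tcl1 overlapped between the groups. Klf5 lies on chromosome 14, whose 584 tested genes had a median change of 0.39, while its own was 0.06 ± 0.08. Fibroblast markers summed to 246 to 707 RPKM in EloA null libraries, overlapping the 121 to 501 of wild type, and their part in the Klf4 value was not tested.

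**Figure D2:**
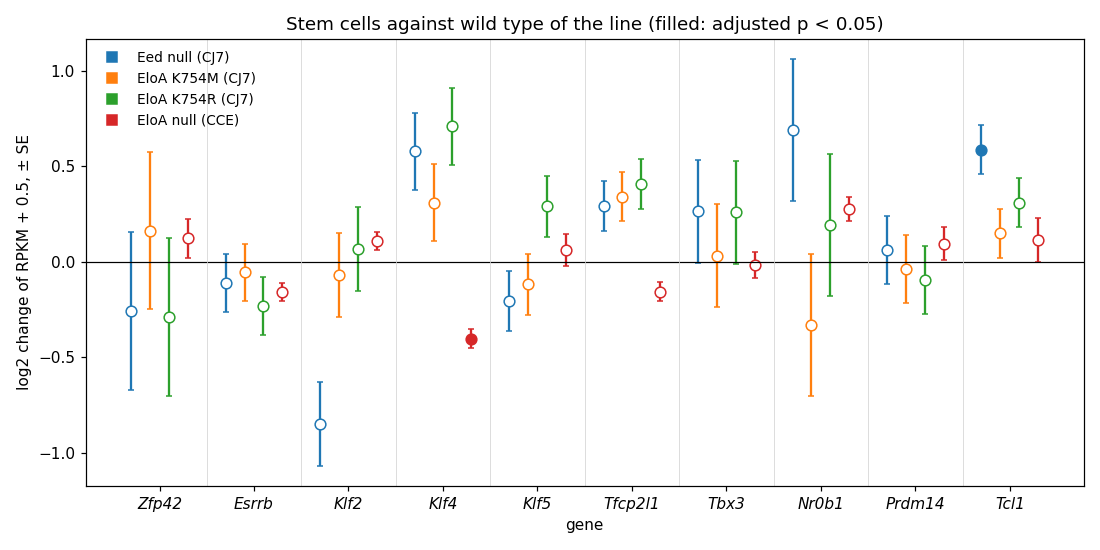
Log2 change of RPKM + 0.5 in mESCs against the wild type of the same line, with the SE of the limma fit, for each member (x axis) in 4 comparisons (colours). Filled points passed an adjusted p of 0.05: Tcl1 in Eed null (0.59) and Klf4 in EloA null (-0.40).

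From stem cells to day 5 EBs all 10 members were lower in CJ7 wild type, Tbx3 by the smallest share. The stages stand in separate tables that may have been normalized separately, so the percentages that follow describe levels and carry no test. In CJ7 wild type the EB mean was 0.0749% of the mESC mean for Tcl1, 0.602% for Esrrb, 0.830% for Nr0b1, 1.88% for Tfcp2l1, 2.20% for Zfp42 and 2.91% for Prdm14, a PR-domain protein that restrains Fgf signalling and DNA methylation in naive cells. The Krüppel-like genes kept more, with 4.55% for Klf2, 7.50% for Klf4 and 18.7% for Klf5. Tbx3, a T-box gene that also acts in endoderm and mesoderm, stood at 40.8%. The median over members was 2.55% in CJ7 wild type and 0.768% in CCE wild type. In Eed null cells the median was 38.8%, in K754M cells 3.86% and in K754R cells 1.48%. Nr0b1 and Zfp42 kept the most in Eed null, with 82.0% and 79.4%, and Klf4 and Prdm14 the least, with 21.2% and 21.8%.

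**Figure D3:**
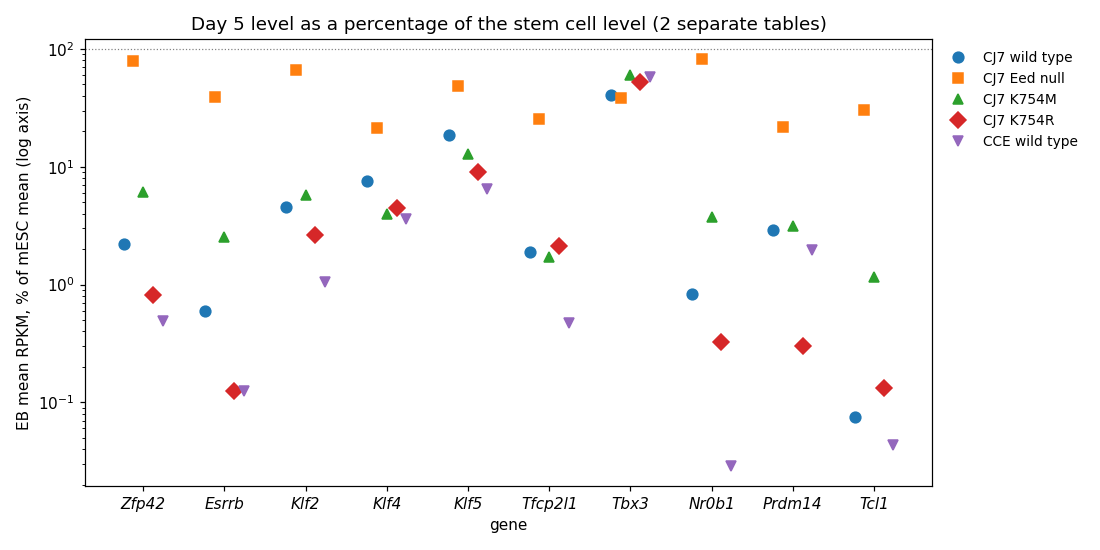
EB mean RPKM as a percentage of the mESC mean (log axis) for each member in 5 genotypes with both stages, a description across 2 separate tables. Eed null squares lie between 21.2% and 82.0%, above all other genotypes for every member but Tbx3, whose 5 values lie between 38.4% and 60.6%.

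At day 5 the naive genes were far higher in Eed null EBs than in wild type EBs: 8 of 10 members passed the test, all higher, where 19.2% of all tested genes were called higher and 30.4% in either direction. The median change of the members was 3.07 on the log2 scale, against 0.05 over all 19300 tested genes. The 8 calls were kept in each of the 4 fits that left out 1 library of the comparison. Because 0.5 RPKM was added, fold changes of genes near 0 are understated.

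Zfp42 was 274 and 194 RPKM in Eed null EBs, while the wild type libraries had 9.08 and 6.80 (log2 change 4.79 ± 0.28, n = 2 per group, adjusted p = 5.88e-05). Both Eed null libraries lay far above the wild type ones, and their mean of 234 RPKM exceeded 99.4% of all genes in the table.

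Among the nuclear receptors, Nr0b1 was 34.2 and 32.6 RPKM against 0.281 and 0.138 (5.58 ± 0.21, adjusted p = 1.74e-05), the largest member change on the log2(RPKM + 0.5) scale, though by ratio of means Tcl1 differed more. Esrrb was 12.9 and 26.9 RPKM against 0.252 and 0.407 (4.53 ± 0.33, adjusted p = 0.000117). Wild type libraries held 16 and 8 reads of Nr0b1 and 48 and 79 of Esrrb, so their low levels rest on few reads, while the Eed null libraries held 2456 and 2047 reads of Nr0b1.

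Tcl1 was close to silent in wild type EBs, with 1 read in each library, and was 7.52 and 6.45 RPKM in Eed null, from 835 and 625 reads (3.87 ± 0.18, adjusted p = 3.18e-05). Per read of depth the ratio was 620, with a 95% interval from 171 to 5128 that covers counting error only. The log2 change of 3.87 is thus much smaller than this ratio, since the wild type value is set by the added 0.5 RPKM.

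Tfcp2l1 was 15.4 and 27.1 RPKM in Eed null EBs against 1.32 and 1.29 (3.54 ± 0.26, adjusted p = 0.000123). Prdm14 was 6.45 and 6.26 against 0.583 and 1.05 (2.40 ± 0.22, adjusted p = 0.000285). Neither overlapped, and the Prdm14 and Nr0b1 replicates agreed more closely within Eed null than those of Tfcp2l1.

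Of the 3 Krüppel-like genes 2 rose. Klf2 was 9.28 and 20.4 RPKM against 1.96 and 1.76 (2.60 ± 0.38, adjusted p = 0.00220). The median change of chromosome 8, where Klf2 and Zfp42 lie, was -0.27, and its part in their values was not tested. Klf4 was 3.40 and 6.29 RPKM against 1.08 and 1.20 (1.65 ± 0.27, adjusted p = 0.00357). Klf5 was 2.90 and 5.70 against 1.57 and 2.25, without overlap, and did not pass (0.94 ± 0.33, adjusted p = 0.0666). It did pass without Eed null library 1 (1.38, adjusted p = 0.0206). Eed null library 2 was the higher one for Klf2, Klf4, Klf5, Tfcp2l1 and Esrrb, whereas for Zfp42 and Tcl1 it was library 1.

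Tbx3 did not go with the others. It was 6.38 and 10.4 RPKM in Eed null EBs against 6.62 and 8.38 in wild type, with overlapping groups (0.13 ± 0.26, 95% interval -0.48 to 0.73, adjusted p = 0.757).

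Eed null EBs also differed from both substitution lines. Against K754M and against K754R 9 of 10 members were higher, Klf5 included, where 18% and 20.4% of all genes were called higher and 27.2% and 34% in either direction. These 2 comparisons share the Eed null libraries with the one against wild type. Klf5 was 2.90 and 5.70 RPKM against 1.40 and 1.02 in K754M (1.44 ± 0.33, adjusted p = 0.0158) and against 0.871 and 1.40 in K754R (1.51 ± 0.33, adjusted p = 0.0105). The Klf5 calls were lost with no filter on low values (adjusted p = 0.0841 and 0.0641). The K754M call was also lost without Eed null library 2 (0.0637) or K754M library 2 (0.0959), and the K754R call without K754R library 1 (0.0648). Tbx3 was again the member that did not pass (adjusted p = 0.235 and 0.227).

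Markers of other cell types moved in the same EBs, where 19.2% of all tested genes were called higher and 30.4% in either direction. Of 12 visceral endoderm markers, 8 were higher and 3 lower in Eed null, and the list summed to 393 to 418 RPKM against 65.6 to 68.4 in wild type, with the fetal serum protein gene Afp at 78.0 and 96.6 against 1.84 and 1.08 RPKM. Of 8 germ cell markers, 5 were higher (summed 45.3 to 50.1 against 17.5 to 18.2 RPKM), and Prdm14 is itself known for its role in germ cell specification. Of 7 tested mesoderm markers, 5 were lower (summed 62.3 to 67.3 against 149 to 184 RPKM). Neural markers were higher for 4 of 5 tested (summed 40.8 to 42.6 against 11.5 to 22.2 RPKM). Trophoblast markers were higher for 4 and lower for 2 of 9, and fibroblast markers higher for 3 and lower for 2 of 10. The part of these 6 lists in the levels of the naive genes was not tested.

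**Figure D4:**
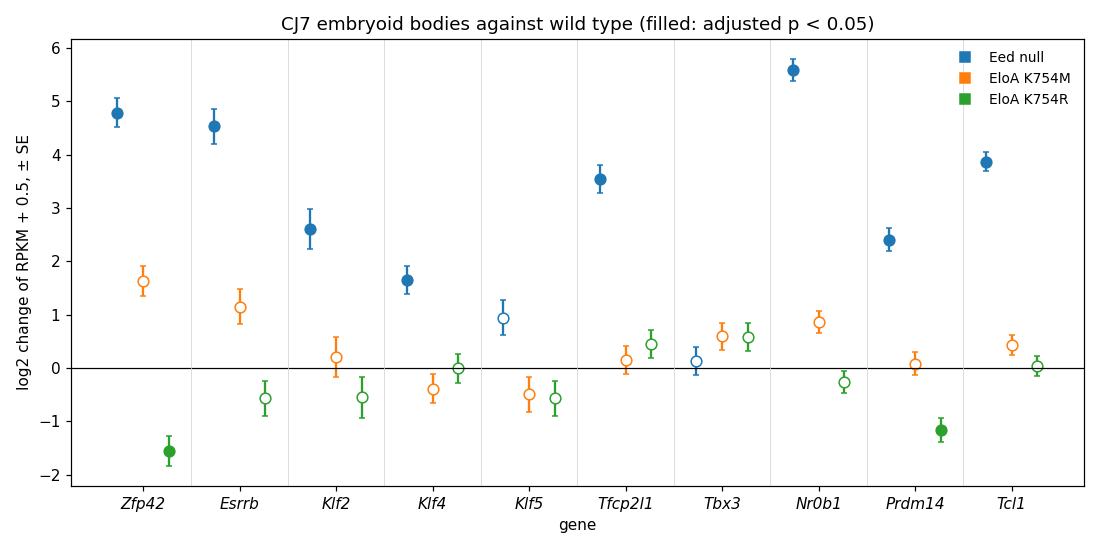
Log2 change of RPKM + 0.5 in CJ7 EBs against wild type EBs, with the SE of the limma fit, for each member (x axis) and 3 genotypes (colours). Filled points passed an adjusted p of 0.05: 8 in Eed null, from Klf4 (1.65) to Nr0b1 (5.58), 0 in K754M, and Zfp42 (-1.55) and Prdm14 (-1.16) in K754R.

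The 2 Elongin A substitutions lay on either side of wild type for Zfp42 in EBs. K754M EBs had 24.5 and 26.3 RPKM of Zfp42, wild type 9.08 and 6.80, and K754R 3.22 and 1.69, and no groups overlapped. Zfp42 fell in K754R (-1.55 ± 0.28, n = 2 per group, adjusted p = 0.0187). In K754M the difference did not pass (1.63 ± 0.28, adjusted p = 0.0651), but did so in a fit of all 14 EB libraries (0.0274).

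Against wild type, 2 of 10 members were called in K754R, both lower, where 4.85% of all genes were called lower and 9.68% in either direction. The second was Prdm14, at 0.122 and 0.0366 RPKM (9 and 3 reads) against 0.583 and 1.05 (47 and 86 reads; -1.16 ± 0.22, adjusted p = 0.0217). Esrrb was also low in K754R (13 and 8 reads against 48 and 79 in wild type) without a call (-0.57 ± 0.33, adjusted p = 0.313). Without 1 library the count of calls was between 0 and 1: Zfp42 was lost without K754R library 2 (adjusted p = 0.0942), wild type library 1 (0.0691) or wild type library 2 (0.0674), and Prdm14 without K754R library 1 (0.0838) or 2 (0.133) or wild type library 2 (0.0983). Neither passed with no filter on low values (0.108 for Zfp42 and 0.0774 for Prdm14). Tfcp2l1 (1.77 and 2.16 RPKM against 1.32 and 1.29) and Tbx3 (9.66 and 13.3 against 6.62 and 8.38) were higher in K754R without overlap and were not called (adjusted p = 0.316 and 0.203). Fibroblast markers were higher in K754R EBs, with 6 of 10 tested called and sums of 43.9 to 65.9 against 8.84 to 12.9 RPKM. Mesoderm markers were lower for 3 and higher for 1 of 7 tested (summed 93.5 to 109 against 149 to 184 RPKM). Visceral endoderm markers were higher for 3 and lower for 1 of 12 (87.5 to 88.8 against 65.6 to 68.4). Germ cell markers were lower for 3 of 8, neural markers for 1 of 5 and trophoblast markers for 0 of 9. The part of these lists in the result was not tested.

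In K754M EBs 0 of 10 members were called by limma, where 0.565% of all genes were called. At an unadjusted p below 0.05 there were 4 members (Zfp42, Esrrb, Nr0b1 and Tcl1), and 2934 of all 19300 tested genes. Those 4 were all higher in K754M. Esrrb was 1.175 and 1.496 RPKM against 0.252 and 0.407 (1.15 ± 0.33, adjusted p = 0.173), Nr0b1 was 0.706 and 0.882 against 0.281 and 0.138 (0.87 ± 0.21, adjusted p = 0.120) and Tcl1 had 11 and 24 reads against 1 and 1 (adjusted p = 0.326). The groups did not overlap for any of these 4 genes, but that does not set them apart. Groups did not overlap for 9 of the 10 members, among them Klf4 and Klf5, which were lower in K754M. How many of all genes did so was not counted, so this count is no result about the members. Fibroblast markers summed to 28.3 to 38.4 RPKM in K754M EBs against 8.84 to 12.9 in wild type, and their part in these values was not tested.

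Set directly against each other, K754M EBs were higher than K754R EBs for 4 of 10 members, where 1.9% of all genes were called higher and 3.62% in either direction. Zfp42 differed by 3.18 ± 0.28 (adjusted p = 0.00460), Esrrb by 1.71 ± 0.33 (1.34 against 0.0581 RPKM, adjusted p = 0.0377, or 0.0900 with 1 RPKM added), Prdm14 by 1.24 ± 0.22 (0.0284) and Nr0b1 by 1.13 ± 0.21 (0.0327). Both mutant lines are compared here as single lines with 2 libraries, so a difference between lines cannot be told apart from one between substitutions. Of 8 germ cell markers 4 were higher in K754M (summed 19.3 to 22.2 against 14.9 to 19.5 RPKM), of 7 mesoderm markers 3 were higher (158 to 168 against 93.5 to 109), and of 10 fibroblast markers 1 was higher and 3 lower (28.3 to 38.4 against 43.9 to 65.9). Their part in these differences was not tested. Without any 1 library, between 0 and 1 members were called: Zfp42 was kept except without K754M library 1 (adjusted p = 0.0518), and the other 3 were lost in each of these fits. With no filter on low values Zfp42 alone was called. Klf4, Klf5, Klf2, Tfcp2l1, Tbx3 and Tcl1 did not pass, and Tbx3 was nearly equal (11.5 RPKM in both).

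In the CCE EBs 0 of 7 tested members were called by limma in pair A against wild type (0 at an unadjusted p below 0.05), in pair B against wild type (1, Zfp42) or in pair B against pair A (1, Zfp42). Of all genes 0%, 0.135% and 0.44% were called, and 1166, 2746 and 3319 of 17735 were at an unadjusted p below 0.05. Esrrb, Nr0b1 and Tcl1 were below the filter of 0.25 RPKM in 2 libraries and were not tested. Zfp42 was 6.26 and 9.85 RPKM in pair B, 5.06 and 3.27 in pair A and 3.47 and 2.92 in wild type, so pair B lay above both (1.18 ± 0.28 against wild type, adjusted p = 0.142, and 0.87 ± 0.28 against pair A, adjusted p = 0.187). Reads of the 3 untested genes were also more in pair B: Esrrb had 28 and 96 reads in pair B, 11 and 16 in pair A and 6 and 21 in wild type. Nr0b1 had 3 and 17 reads in pair B and 0 and 1 in each of the others. Tcl1 had 4 and 10 reads in pair B, 0 and 0 in pair A and 1 and 0 in wild type. Depth over these 6 libraries was 23.6 to 30.9 in the units above. Tceb3 had a mean of 8.17 RPKM in pair B, 8.52 in pair A and 10.6 in wild type, so both pairs lay below wild type. With the replicate number as a block, 0 of 7 members were called in each of the 3 comparisons (Zfp42 in pair B, adjusted p = 0.0873 and 0.124), while calls over all genes went from 24 to 703 for pair B against wild type and from 78 to 1462 for pair B against pair A. Pair B also had higher fibroblast marker sums (62.1 to 89.8 RPKM against 20.4 to 24.3 in pair A and 33.8 to 34.5 in wild type) and a chromosome 14 median of 0.42 against wild type, where pair A had 0.00495 and the EloA null mESCs, against their own wild type, 0.39. Against CJ7 wild type, in mESCs and EBs, the chromosome 14 medians were 0.29 and 0.34 in K754R. They were 0.06 and 0.03 in K754M, and 0.09 and 0.06 in Eed null. These medians assign no genotype. Their part in these values was not tested.

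Wild type CJ7 and CCE stem cells differed in several members. In mESCs 5 of 10 passed, 4 lower and 1 higher in CJ7, where 22.7% of all genes were called (10.2% lower, 12.5% higher). Klf4 differed most, with 14.3 and 16.1 RPKM in CJ7 against 41.6, 40.7 and 43.4 in CCE (-1.44 ± 0.14, adjusted p = 3.49e-05). Tfcp2l1 (-0.46 ± 0.09), Klf5 (-0.45 ± 0.12) and Esrrb (-0.38 ± 0.10) were lower in CJ7 as well. Prdm14 was higher in CJ7, with 28.5 and 27.5 RPKM against 19.6, 15.8 and 17.6 (0.66 ± 0.14, adjusted p = 0.00619). Klf4 and Prdm14 stayed called in each fit that left out 1 library. Tfcp2l1 was lost without CJ7 library 1 (adjusted p = 0.0516), Esrrb in each fit except that without CCE library 2, and Klf5 without CJ7 library 1 or 2 or CCE library 1, so that 2 to 5 members were called. Zfp42 was gained without CJ7 library 2 (0.0497). In EBs Zfp42 was called, higher in CJ7 (9.08 and 6.80 against 3.47 and 2.92 RPKM, 1.18 ± 0.30, adjusted p = 0.0457), where 6.82% of all genes were called and 4.17% were higher, and this call was lost without any 1 of the 4 libraries (adjusted p from 0.0953 to 0.213). Line cannot be told apart from anything else that differed between the 2 sets of cultures.

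Across the 7 EB groups the order of Zfp42 levels was Eed null, K754M, pair B, CJ7 wild type, pair A, CCE wild type and K754R. Eed null and K754M each stood clear of the group below. Pair B and CJ7 wild type overlapped, as did pair A and CCE wild type, and CCE wild type and K754R.

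Other genes of the pluripotency network were taken as a list of 22 without the members. In Eed null EBs 16 of the 22 were higher and 1 lower than in wild type, with a median change of 2.41. Of all genes 19.2% were called higher there and 30.4% in either direction. Dppa3 (Stella), which marks naive and germ cells, was 73.2 and 57.0 RPKM against 2.79 and 2.25 (4.44 ± 0.18). Dppa5a differed by 4.37 ± 0.34, Gdf3, a Tgf-beta family ligand, by 3.74 ± 0.28 and Fbxo15 by 3.56 ± 0.28. The 1 lower gene was the Wnt target Sp5 (2.51 against 7.42 RPKM). The core factors Pou5f1 (179 and 169 against 47.9 and 50.2 RPKM), Nanog (188 and 185 against 36.7 and 59.0) and Sox2 (28.1 and 49.6 against 4.07 and 2.98) were among those that rose, and were picked for mention after their values were seen.

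In K754R EBs 12 of the 22 were lower than in wild type and 1 was higher, with a median of -1.01. Of all genes 4.85% were called lower there and 9.68% in either direction. Pou5f1 was 5.61 and 3.44 RPKM against 47.9 and 50.2 (-3.34 ± 0.19, adjusted p = 0.000630), Nanog 6.39 and 5.39 against 36.7 and 59.0 (-2.89 ± 0.21) and Tdgf1 (Cripto), a Nodal co-receptor, 24.8 and 22.8 against 135 and 174 (-2.66 ± 0.15). The higher gene was Pecam1, which endothelium also expresses (3.90 against 1.36 RPKM). In K754M EBs 1 of the 22 was called, Dppa4 (19.1 against 7.65 RPKM, 1.26 ± 0.17), where 0.565% of all genes were called. Against K754R, 12 of the 22 were higher in K754M, where 1.9% of all genes were called higher.

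Signalling genes of the naive state are read here against the background in Eed null EBs, where 30.4% of all genes were called and 19.2% of all genes were called higher. There 4 of 11 LIF and Stat3 pathway genes were higher: the kinase gene Pim1, a Stat3 target (12.6 and 18.7 against 3.35 and 4.36 RPKM, 1.87 ± 0.23), Lif itself (2.75 against 1.32), Stat3 (8.70 against 4.94) and Jak1 (15.7 against 9.42). Of 10 Wnt and Gsk3 genes 1 was higher, the repressor Tcf7l1 (1.28 against 0.732 RPKM). Of 15 Fgf and Erk genes 5 were higher, led by the Erk-responsive factor gene Etv5 (2.07 ± 0.22) and the feedback inhibitor genes Spry4 (1.42 ± 0.40) and Spry2 (1.20 ± 0.32), and 3 were lower, among them the receptor gene Fgfr1 (-1.25 ± 0.26). Of 8 Bmp, Smad and Id genes 3 were lower, led by Smad1 (5.42 against 20.2 RPKM, -1.82 ± 0.14), with Id1 (-0.82 ± 0.16) and Bmpr1a (-0.59 ± 0.16). Of 11 tested primed epiblast genes, which mark the state after the naive one, 2 were higher (Foxd3 and Dnmt3a) and 1 lower (Fgf5). In K754R EBs Fgf5 was higher (21.8 against 7.81 RPKM, 1.47 ± 0.30) and the primed gene Fst lower (2.68 against 12.7 RPKM, -2.06 ± 0.16).

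In stem cells 3 of the 22 other pluripotency genes were called in Eed null, where 8.59% of all genes were, and 3 of 22 in EloA null, where 3.35% were. In Eed null mESCs 1 of the 22 other pluripotency genes was higher, Dppa3 (80.0 and 77.3 against 24.6 and 10.4 RPKM, 2.26 ± 0.35), and 2 were lower, Sox2 (58.3 against 86.8 RPKM) and Pecam1 (28.9 against 72.2). The LIF and Stat3 list gave 0 calls of 11 by limma there, with 3 at an unadjusted p below 0.05, near the share over all genes (5484 of 21012). Dusp6, an Erk feedback phosphatase gene, and the receptor gene Fgfr2 were higher in Eed null mESCs (1.90 ± 0.36 and 1.82 ± 0.28). In EloA null mESCs the RNA-binding protein gene Lin28a was higher (33.6 against 22.3 RPKM), Fbxo15 (266 against 324) and Pecam1 (21.0 against 32.4) were lower, the Bmp receptor gene Bmpr1a was higher (23.2 against 15.3) and the primed gene Otx2 lower (3.40 against 5.61).

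The genes whose pattern over the 14 EB libraries was most like the mean of the members were Gramd1b, Eps8, Abcc4, Stk31 and Plk3. Likeness was the mean absolute difference after each gene was set to mean 0 and SD 1, and was 0.0966 SD for Gramd1b and up to 0.140 for Plk3, against a median of 1.07 over 12997 genes. The member closest to that mean was Esrrb (0.133) and the farthest was Tbx3 (1.18). Over the 14 mESC libraries the nearest were Gm12799, Gm14680, Gm15453, Trim27 and Gm12141 (0.201 to 0.222, median of 13973 genes 1.20), and Prdm14 (1.73) and Tcl1 (1.43) lay farther from the mean of the members than the typical gene. These libraries share line, stage and replicate spread, so the values are a description.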

How the data were processed

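RNA from 28 libraries (14 of mESCs, 14 of day 5 EBs) was analysed. The authors deposited 1 RPKM value per gene and library, in 1 table for each stage. CASAVA 1.7, STAR and the mm9 build are listed, without role or order, per the submitters' processing notes. Which program counted reads, on which annotation and with what strand setting is not stated there. Reads per gene and depth were inferred from the RPKM value of 1 read, and intervals on them cover counting error only. Values were tested as log2(RPKM + 0.5) with limma-trend (limma 3.58.1, R 4.3.3; Python 3.11.15, pandas 2.3.3, scipy 1.17.1, matplotlib 3.10.9), for genes with at least 0.25 RPKM in at least 2 libraries, in 1 fit per line and stage (line comparisons: all 14 libraries of the stage), Benjamini-Hochberg adjustment over the genes of a comparison and a two-sided threshold of 0.05. The procedure was tested on simulated data. Same-numbered libraries deviated together in CCE mESCs (r = 0.51, 0.22 and 0.24) and in CCE EBs (0.18 to 0.43 over the pairs of groups, where 2 numbers make the values mirror each other), so the fit with the replicate number as a block is given there where it changes a call or a count. The members and gene lists were chosen with earlier results of these data known. All members are named, with at most 4 called genes per list and comparison by size of change; others were named after their values were seen. Sox1 was not found. Promoters came from RefSeq (GRCm38.p6) and gene lengths and chromosomes from GENCODE M21, matched by gene identifier. Alternatives were other added constants, no filter, median-shifted libraries, a replicate block, 1 fit per stage and leaving out each library.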

Additional observations from a re-analysis of the deposited data

Results flagged for a closer look

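Some members lay on opposite sides of wild type in mESCs and EBs, with no overlap between the groups at either stage. Of the 17757 genes tested at both stages, 15.5% did so in Eed null, 6.55% in K754M and 7.79% in K754R, against 3, 1 and 1 of the 10 members. The difference between stages was not tested, as the stages lie in separate tables. In Eed null CJ7 cells the log2 change of Esrrb was -0.11 in mESCs and 4.53 in EBs, that of Klf2 -0.85 and 2.60, and that of Klf5 -0.21 and 0.94. In K754M cells the change of Klf4 was 0.31 in mESCs and -0.39 in EBs. In K754R cells the change of Klf5 was 0.29 in mESCs and -0.56 in EBs, while the median of its chromosome 14 was 0.29 and 0.34. Of these 10 changes, 2 passed their own test, those of Esrrb and Klf2 in Eed null EBs.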

How the results depend on the processing

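No called change of a member changed sign under the settings tried. Of the 141 member changes, 30 that were not called (adjusted p of 0.659 or more) did change sign, 29 of them when 1 library was left out. Counts of called members moved as follows. With libraries shifted to the same median, the count was 0 for Eed null mESCs and 2 for the wild type lines in EBs. With no filter on low values it was 0 for K754R EBs, 1 for K754M against K754R EBs and 0 for the lines in EBs, and with 0.1 added it was 2 for the lines in EBs. In 1 fit per stage it was 3 for Eed null mESCs, 2 for K754R mESCs, 0 for EloA null mESCs and 1 for K754M EBs. Leaving out 1 library gave 0 for Eed null mESCs, 0 to 2 for EloA null mESCs, 0 to 1 for K754R EBs, 0 to 1 for K754M against K754R EBs, 2 to 5 for the lines in mESCs and 0 for the lines in EBs; where an arm held 1 library, it is assumed to vary like the other groups. With 2 to 3 libraries a group, and few reads for Tcl1, Nr0b1, Esrrb and Prdm14 in most EBs, small changes could not be detected.

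With a replicate block the count was 2 for EloA null mESCs (Klf4 and Nr0b1), 1 for K754M EBs (Zfp42, adjusted p = 0.0357) and 4 for the lines in EBs (with Klf2, Tfcp2l1 and Tbx3). Klf5 passed in Eed null EBs (0.0429) and was lost between the lines in mESCs (0.0576). Correlations of same-numbered deviations were 0.03 to 0.35 in CJ7 mESCs and 0.01 to 0.23 in CJ7 EBs. The CJ7 mESC range thus reaches above the values of 0.22 and 0.24 seen in CCE mESCs. In both lines the labels give a replicate number and do not say what same-numbered libraries share. In CJ7 the block moved all-gene counts from 109 to 230 for K754M EBs and from 1868 to 2950 for K754R EBs. Counts went from 698 to 1099 for K754M against K754R EBs and from 34 to 2 for K754R mESCs. For Eed null against wild type they went from 1805 to 2575 in mESCs and from 5867 to 7062 in EBs. Eed null EBs went from 5241 to 6312 against K754M and from 6570 to 7725 against K754R.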
